A study of Mus musculus with 5 samples.

Results

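Bone morphogenetic protein (BMP) signalling was followed through 10 genes of the 32286 features measured in single cells of mouse synovial sarcoma (SyS). These were the ligand genes *Bmp2*, *Bmp4*, *Bmp5* and *Bmp7*, the genes of the secreted antagonists *Fst*, *Grem1* and *Nog*, and the target genes *Id1*, *Id2* and *Id3*. They were chosen by symbol, with earlier results of these data known. All 10 were detected and passed the filter on low counts in every comparison below. All 5 tumours arose in *hSS2* mice, in which TATCre protein injected into the limb in the second week of life switches on the human fusion oncogene *SS18::SSX2* from the *Rosa26* locus. Tumours were taken when the mice became morbid, and tissue beside the dissociated piece was read for histology. The labels give BP (biphasic, with an epithelial component beside spindle cells) to 2 tumours, and MP (monophasic, spindle cells only), MP+BP and PD+MP (PD, poorly differentiated) to 1 tumour each. No library of normal tissue was analysed here, so host cells inside each tumour served as the comparison, and the fusion transcript itself was not measured.

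BMP ligands are secreted dimers that bind paired serine/threonine kinase receptors, whose type I partner phosphorylates SMAD1, SMAD5 and SMAD9, which enter the nucleus with SMAD4. Extracellular antagonists bind the ligands and keep them from their receptors. The *Id* genes are among the most direct targets of the pathway, and their products hold bHLH transcription factors away from DNA. In limb development the pathway patterns cartilage, joints and the interdigital tissue.

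The libraries held 51670 called cells and 498186066 UMIs (unique molecular identifiers, each standing for 1 captured RNA molecule), and 39559 cells were kept. Clusters were named from marker genes, and 27067 cells were SyS-like, with 3674 to 6863 in each tumour. The comparison classes were macrophage-like cells (3781), endothelial-like cells (2449) and stromal cells (1394, namely 1246 pericyte-like and 148 fibroblast-like, of which 126 came from PD+MP). A further 3760 cells stayed unnamed, and several of their clusters carried SyS markers at low UMI counts. The summed SyS markers reached 2255 to 2658 CPM (UMIs of a gene scaled to a total of 1000000 UMIs) in SyS-like cells and 101 to 329 CPM in the comparison classes. The median UMI count per cell was 8533 to 12310 in SyS-like cells, 2763 to 7444 in stromal, 4009 to 5095 in endothelial-like and 4338 to 6972 in macrophage-like cells. Pairs of libraries shared 15 to 33 cell barcodes. Levels below are CPM over the summed cells of a class in 1 tumour, which corrects for the total but not for RNA free in the suspension. Series of 5 values follow the order BP replicate 1, BP replicate 2, MP, MP+BP, PD+MP. Where no spread is given, a value stands for 1 tumour, and counting intervals cover counting error only.

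The genes lie on 7 chromosomes of genome build GRCm38 (mm10). *Bmp2* occupies 133552159 to 133562885 of chromosome 2, which also carries *Grem1* (113746164 to 113758646), *Id1* (152736251 to 152737410) and *Bmp7* (172868012 to 172940321). *Id3* lies on chromosome 4 (136143497 to 136145755), *Bmp5* on chromosome 9 (75775364 to 75900310) and *Nog* on chromosome 11 (89300638 to 89302332). *Id2* lies on chromosome 12 (25093799 to 25097140), *Fst* on chromosome 13 (114452290 to 114458951) and *Bmp4* on chromosome 14 (46383520 to 46390669). *Bmp5* is overlapped on its own strand by *Gm47723*, so its count is uncertain where reads fall in both. *Bmp4*, *Bmp5* and *Fst* are each overlapped by predicted gene models on the opposite strand.

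Sequences upstream of the start are shown for members that behaved differently below, *Grem1* and *Bmp4* (higher in SyS-like than in stromal cells) and *Bmp5* (lower, and held mostly by 1 cluster). The RefSeq promoter table (GRCm38.p6) held 5 of the 10 members, and the windows of *Id2* and *Id3* are not shown, since they lay inside or overlapped the annotated gene. Capitals mark matches on either strand to GGCGCC, a GC-rich motif bound by SMAD1 and SMAD5, and to CAGAC, a core of the SMAD box; the motifs do not overlap each other here. The windows are chr2:113758649-113758898 (minus strand), chr14:46390670-46390919 (minus) and chr9:75775115-75775363 (plus), each written 5′ to 3′ along the gene.
Grem1: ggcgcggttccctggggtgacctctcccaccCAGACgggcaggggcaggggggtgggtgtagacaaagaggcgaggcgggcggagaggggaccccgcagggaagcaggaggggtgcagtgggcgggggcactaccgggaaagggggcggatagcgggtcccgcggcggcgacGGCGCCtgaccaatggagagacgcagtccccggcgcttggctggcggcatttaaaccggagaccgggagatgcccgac
Bmp4: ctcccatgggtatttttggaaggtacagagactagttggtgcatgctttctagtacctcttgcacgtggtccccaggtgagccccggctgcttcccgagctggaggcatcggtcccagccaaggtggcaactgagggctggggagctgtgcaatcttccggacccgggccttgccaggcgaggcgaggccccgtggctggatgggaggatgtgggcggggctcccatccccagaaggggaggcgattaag
Bmp5: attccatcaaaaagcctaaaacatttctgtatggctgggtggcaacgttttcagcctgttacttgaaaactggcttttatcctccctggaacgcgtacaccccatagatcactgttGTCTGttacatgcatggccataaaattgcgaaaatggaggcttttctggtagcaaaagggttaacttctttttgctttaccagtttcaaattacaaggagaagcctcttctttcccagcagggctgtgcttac

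GGCGCC occurred 1 time in the *Grem1* window, 73 to 78 bases before the start, and in neither of the others. CAGAC occurred 1 time each in the *Grem1* and *Bmp5* windows and not in that of *Bmp4*. Among 32851 promoters in the table, 9.59% held GGCGCC and 42.2% held CAGAC within 250 bases. The matches are descriptions of letters and say nothing on binding.

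The first question was where in the tumours the pathway genes were expressed. Against stromal cells, 6 of the 10 genes were higher in SyS-like cells (*Bmp4*, *Bmp7*, *Fst*, *Grem1*, *Nog* and *Id2*) and 2 were lower (*Bmp5* and *Id3*). Of all 18079 genes tested there, 17.3% were called higher and 13.4% lower (edgeR quasi-likelihood test, tumour as a block, Benjamini-Hochberg adjusted p under 0.05). Against endothelial-like cells, 6 genes were higher (*Bmp5*, *Bmp7*, *Fst*, *Grem1*, *Nog* and *Id2*) and 2 lower (*Bmp2* and *Id1*), beside 30.2% and 22.8% of 18386 genes. Against macrophage-like cells, 9 genes were higher and *Id2* alone was lower, beside 36.5% and 26.7% of 18295 genes. The median log2 fold change of the members was 2.99, 2.89 and 3.61 in the respective comparisons, and that of all genes tested 0.18, 0.17 and 0.24. The members were chosen with earlier results of these data known, so these counts and medians are descriptions and no test of the set. All 3 antagonist genes and *Bmp7* were higher in SyS-like cells than in each of these classes taken whole, the stromal class being mostly pericyte-like cells.

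**Figure D1:**
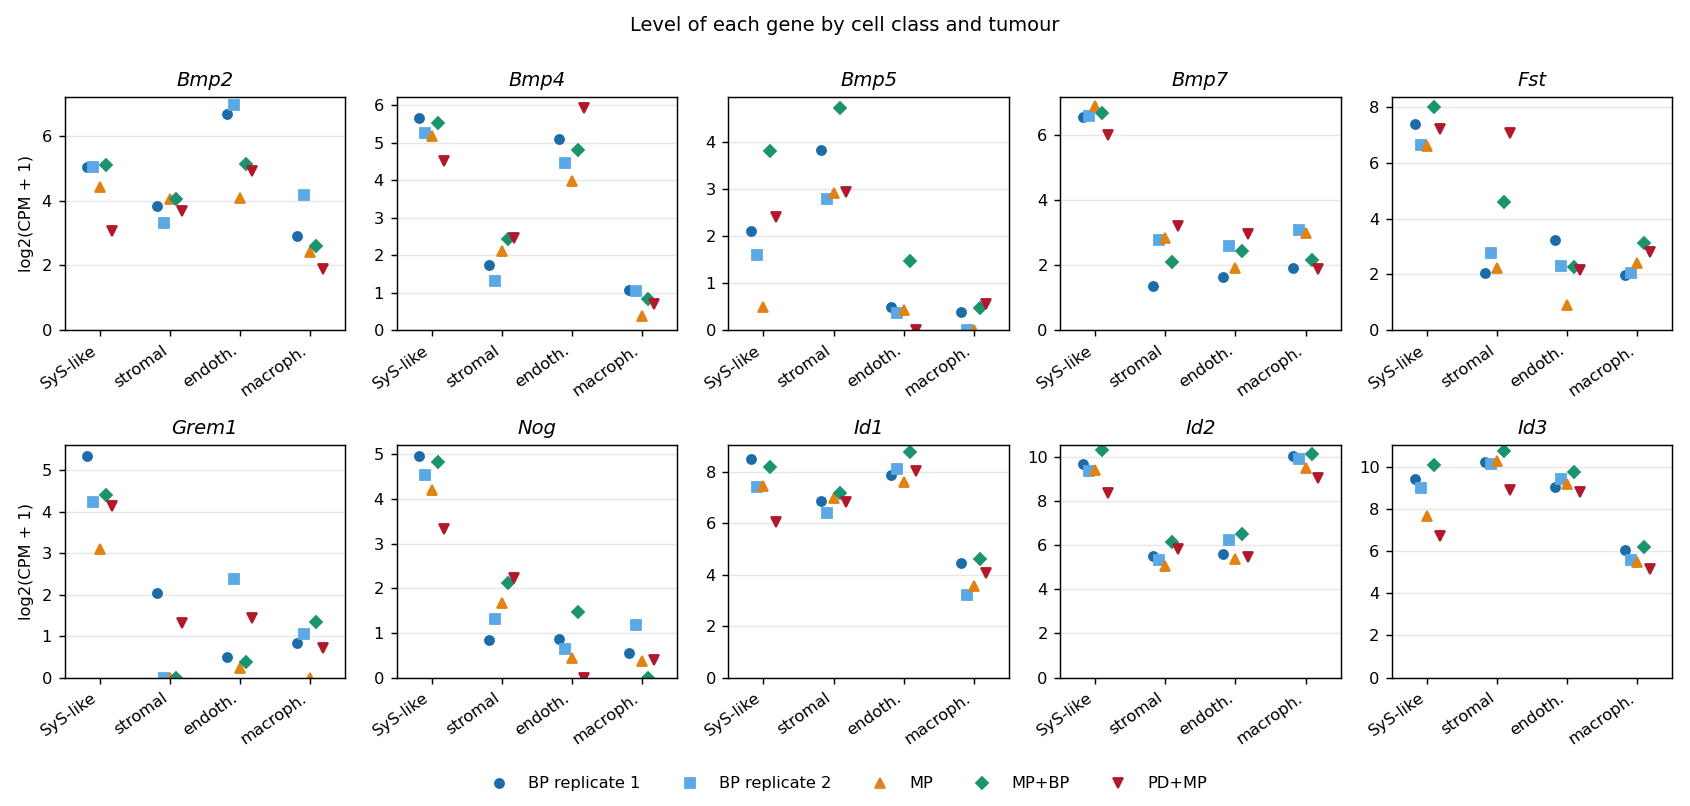
Level of the 10 genes as log2(CPM + 1), by cell class (x axis) and tumour (symbols). *Bmp7*, *Grem1* and *Nog* stood highest in the SyS-like cells of every tumour, *Id2* was high in SyS-like and macrophage-like cells, and *Id3* was highest in stromal cells of all 5 tumours.

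**Figure D2:**
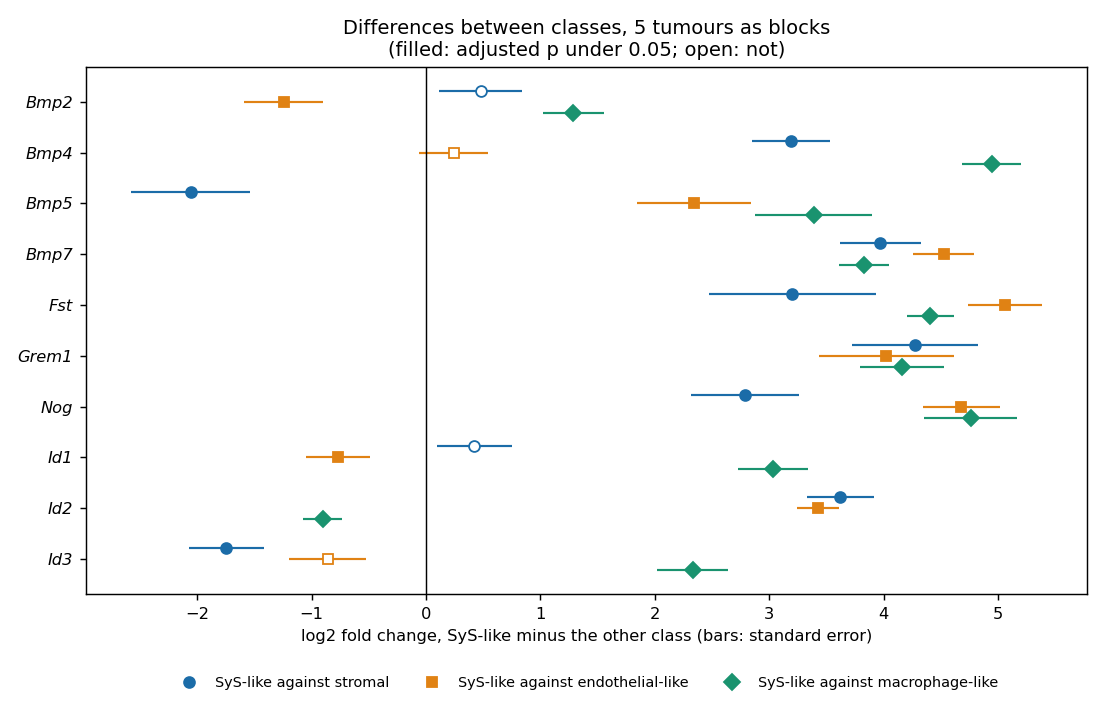
Log2 fold change of each gene, SyS-like minus the other class, with the standard error from 5 tumours as blocks. Filled symbols had an adjusted p under 0.05, and *Bmp2*, *Bmp5*, *Id1*, *Id2* and *Id3* changed sign with the class compared.

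Among the ligands, *Bmp7*, a ligand of kidney, eye and limb development, was detected in SyS-like cells at 94.0, 96.5, 119, 102 and 64.1 CPM. Its mean there was 95.2 ± 19.9 CPM (SD, n = 5), against 5.03 ± 2.59 in stromal, 4.23 ± 1.89 in endothelial-like and 4.65 ± 2.31 in macrophage-like cells. SyS-like cells exceeded stromal cells by 3.97 ± 0.35 (log2 fold change ± SE, adjusted p = 5.84e-05 by edgeR) and endothelial-like cells by 4.53 ± 0.27 (9.85e-07). The SyS-like and the other levels of *Bmp7* did not overlap in any tumour. With each cell thinned to 3000 UMIs, 16.7 to 27.1% of SyS-like cells held a *Bmp7* UMI, against 0.599 to 2.11% of macrophage-like cells. The median depths of both classes are given above. Whether the macrophage-like signal was low expression or RNA free in the suspension was not tested.

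*Bmp4*, a ligand of early mesoderm and skeletal patterning, showed 49.7, 36.9, 35.2, 45.2 and 21.9 CPM in SyS-like cells. Endothelial-like cells held it at a like level, 31.1 ± 17.6 CPM (SD, n = 5) against 37.8 ± 10.7, and the log2 difference of 0.24 ± 0.30 was not called (edgeR adjusted p = 0.524). Stromal cells held 3.20 ± 1.30 CPM, and SyS-like cells exceeded them by 3.19 ± 0.34 on the log2 scale (1.74e-04). The PD+MP tumour stood apart from the other 4, being lowest in SyS-like cells and, at 60.1 CPM, highest in endothelial-like cells. This endothelial-like level rested on 35 UMIs in the 81 endothelial-like cells of that tumour. Without that tumour the difference from endothelial-like cells was called, at a log2 fold change of 0.60 (adjusted p = 0.0119, range over the alternatives 0.0119 to 0.955).

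*Bmp2*, a ligand that drives bone and cartilage formation, was detected in SyS-like cells at 31.6, 32.0, 20.5, 33.5 and 7.36 CPM. Endothelial-like cells held 101, 122, 16.1, 34.0 and 29.2 CPM, so both BP replicates were high and the classes overlapped. SyS-like cells were lower than endothelial-like cells by a log2 fold change of -1.24 ± 0.34 (edgeR adjusted p = 0.0128). That call was lost without either BP replicate, at -0.97 (adjusted p = 0.0720) and -0.99 (0.0536), the range over the alternatives being 0.00182 to 0.0720. The stromal level, 13.04 ± 2.82 CPM, differed from the SyS-like level by 0.48 ± 0.36 (0.352), but the call was made without PD+MP, at 0.80 (0.0323, range over the alternatives 0.0323 to 0.686).

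*Bmp5*, a ligand that shapes skeletal elements, was the scarcest of the ligands in SyS-like cells, at 3.35, 2.01, 0.403, 13.02 and 4.32 CPM. Stromal cells held 13.3, 5.90, 6.57, 25.4 and 6.69 CPM. The stromal level was higher in all 5 tumours, and the log2 fold change of SyS-like against stromal cells was -2.06 ± 0.52 (edgeR adjusted p = 0.0169). It was no longer called without BP replicate 1, at -1.99 (0.0653, range over the alternatives 2.32e-04 to 0.132). Stromal sums held 71 *Bmp5* UMIs in all and endothelial-like sums 11, so these levels were imprecise.

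Among the antagonists, *Fst* encodes follistatin, which binds activins and several BMPs. Its SyS-like level was 168, 99.8, 96.3, 258 and 150.4 CPM. Stromal cells held 3.13, 5.90, 3.65, 23.2 and 134 CPM, so a single tumour carried most of the stromal signal. PD+MP was also the tumour that supplied 126 of the 148 fibroblast-like cells, and its pericyte-like cells held 3.92 CPM. Its fibroblast-like cells held 165 CPM (180 UMIs), above the 150.4 CPM of its SyS-like cells. The few fibroblast-like cells of MP+BP held 102 CPM on 6 UMIs, below the SyS-like level there. The log2 fold change against stromal cells was 3.20 ± 0.73 (edgeR adjusted p = 0.0104, range over the alternatives 3.92e-08 to 0.115, not called without the tumour block), that against endothelial-like cells 5.06 ± 0.32 (1.62e-06) and that against macrophage-like cells 4.41 ± 0.21 (1.97e-08).

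*Grem1*, gremlin 1, which binds BMP2, BMP4 and BMP7, had a SyS-like level of 39.9, 17.9, 7.55, 20.3 and 16.8 CPM. Stromal sums held 4 *Grem1* UMIs in BP replicate 1, 2 in PD+MP and 0 in the other tumours, where 0 UMIs allow up to 4.43 CPM in BP replicate 2, 1.09 in MP and 3.32 in MP+BP (3 counts of the total). SyS-like cells exceeded stromal cells by a log2 fold change of 4.27 ± 0.55 (edgeR adjusted p = 5.34e-04) and endothelial-like cells by 4.02 ± 0.59 (3.51e-04). The SyS-like level was above each of the other classes in all 5 tumours.

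*Nog*, noggin, which binds BMP2 and BMP4 with high affinity, was detected in SyS-like cells at 30.3, 22.2, 17.5, 27.5 and 9.05 CPM. The stromal, endothelial-like and macrophage-like sums over all tumours held 16, 14 and 12 *Nog* UMIs. SyS-like cells exceeded stromal cells by 2.79 ± 0.47 on the log2 scale (edgeR adjusted p = 0.00235) and macrophage-like cells by 4.76 ± 0.41 (1.90e-06). As for *Grem1*, its SyS-like level was above each of the other classes in all 5 tumours.

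The 3 *Id* genes differed in where they were expressed. *Id2*, also a regulator of innate lymphoid and dendritic cell development, was at 817, 663, 674, 1258 and 325 CPM in SyS-like cells. Macrophage-like cells held 1059.8, 954, 719, 1121 and 536 CPM. Stromal cells held 48.5 ± 14.5 CPM (SD, n = 5) and endothelial-like cells 58.9 ± 22.4. SyS-like cells exceeded stromal cells by 3.62 ± 0.29 on the log2 scale (edgeR adjusted p = 3.69e-05) and lay below macrophage-like cells by -0.90 ± 0.17 (8.18e-04), a direction seen in 4 of 5 tumours and not called with library totals as the only scaling (-0.31, adjusted p = 0.119, range over the alternatives 1.34e-06 to 0.119). Dendritic-like cells, too few for a test, held 787 to 1349 CPM.

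*Id3*, a target prominent in vessel walls, showed the reverse order. Its SyS-like level was 684, 506, 204, 1074 and 104 CPM. Stromal cells held 1206, 1132, 1235, 1749.9 and 485 CPM, above the SyS-like level in all 5 tumours. The log2 fold change of SyS-like against stromal cells was -1.74 ± 0.33 (edgeR adjusted p = 0.00411, range over the alternatives 5.49e-06 to 0.0552, not called without the tumour block). Against endothelial-like cells, at 618 ± 165 CPM (SD, n = 5), it was -0.86 ± 0.33 and missed the threshold (0.0536, with 0.0334 to 0.404 over the alternatives). Macrophage-like cells held 34.1 to 71.7 CPM, so *Id2* and *Id3* separated macrophage-like and stromal cells in opposite directions.

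*Id1*, the third target, was at 366, 170.2, 172, 289 and 65.0 CPM in SyS-like cells. Endothelial-like cells held 195 to 440 CPM and were above SyS-like cells in 4 of 5 tumours, with a log2 fold change of -0.77 ± 0.28 (edgeR adjusted p = 0.0439). That call was close to the threshold and was lost in 8 of the alternatives (0.0132 to 0.171 over all of them). Stromal cells held 84.1 to 146 CPM, and the difference of 0.42 ± 0.33 was not called (0.369), though it was without PD+MP (0.79, adjusted p = 0.00774, range over the alternatives 0.00774 to 0.763). Macrophage-like cells held 8.26 to 23.5 CPM, a log2 difference of 3.03 ± 0.31 (7.34e-06).

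The rest of the pathway was read from 59 further genes in fixed lists, also chosen with earlier results of these data known. Against stromal cells 54 were tested, and SyS-like cells had 13 of them higher and 9 lower, beside 17.3% and 13.4% of all genes. Of 12 receptor and co-receptor genes, 2 were higher (*Neo1* and *Rgmb*) and 3 lower, namely *Acvrl1* (-6.47 ± 0.33, edgeR adjusted p = 2.96e-06), *Eng* (-4.34 ± 0.46) and *Acvr1* (-1.09 ± 0.22). *Acvrl1* and *Eng* encode a type I receptor and a co-receptor of vessels, and SyS-like cells held *Acvrl1* at 0.242 to 0.290 CPM. The type I receptor gene *Bmpr1a* and the type II receptor gene *Bmpr2* were present in SyS-like cells at 126 ± 29.7 and 277 ± 55.3 CPM (SD, n = 5).

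Of 12 other antagonist genes, 11 were tested against stromal cells, and 3 were higher and 2 lower. *Sostdc1*, which encodes a secreted BMP and Wnt antagonist, was higher by 5.89 ± 0.67 on the log2 scale (edgeR adjusted p = 2.46e-04), and averaged 9.28 ± 4.59 CPM over the SyS-like sums. *Sost*, sclerostin, was higher by 3.80 ± 0.50, while *Nbl1* was lower by -2.52 ± 0.54. Against endothelial-like cells 9 of 10 tested antagonist genes were higher, with *Bmper* at 5.13 ± 0.28, and *Bambi*, a pseudoreceptor, was lower. Against macrophage-like cells all 10 tested were higher.

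Of 13 other ligand genes, 9 were tested against stromal cells, with the activin subunit genes *Inhbb* higher (3.04 ± 0.60) and *Inhba* lower (-3.63 ± 0.48, edgeR adjusted p = 5.82e-04). Of 10 SMAD and regulator genes, *Smad6* was higher (1.38 ± 0.44) and *Ski* lower (-0.88 ± 0.21), and the list's median was 0.02 against 0.18 for all genes. Of 12 further target genes, 6 were higher and 2 lower, with a median of 1.57. *Atoh8* (2.89 ± 0.46), *Gata2* (2.54 ± 0.32) and *Msx1* (2.48 ± 0.27, adjusted p = 1.76e-04), all transcription factor genes, had the largest called differences of that list.

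Against endothelial-like cells 25 of 52 tested pathway genes were higher and 16 lower, beside 30.2% and 22.8% of all genes. *Acvrl1* (-8.13 ± 0.22) and *Eng* (-6.66 ± 0.54) were again lowest among the receptor genes, *Smad1* (-2.46 ± 0.19) and *Ski* (-1.27 ± 0.13) among the SMAD and regulator genes. The ligand genes *Gdf10* (4.03 ± 0.34) and *Gdf6* (3.76 ± 0.48) and the homeobox genes *Msx2* (4.05 ± 0.30) and *Dlx5* (3.84 ± 0.32) were higher. Against macrophage-like cells 36 of 53 were higher and 4 lower, beside 36.5% and 26.7% of all genes, with *Acvrl1* (-7.47 ± 0.22) and *Skil* (-1.38 ± 0.19) among the lower genes. *Bmpr1a* (4.54 ± 0.19), *Tbx3* (4.50 ± 0.26), *Chrdl1* (4.38 ± 0.39), *Bmp6* (4.16 ± 0.43), *Id4* (4.14 ± 0.25) and *Smad9* (3.45 ± 0.75) were higher there.

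The second question was whether levels in tumour cells went with the histology label. In SyS-like cells PD+MP had the lowest level of 7 members and MP of the other 3, while MP+BP had the highest of 5 and BP replicate 1 of 4. Across the 3 tumours with BP in their label, *Id3* averaged 755 ± 290.5 CPM (SD, n = 3), against 154 ± 70.7 (n = 2) in the others. *Nog* averaged 26.7 ± 4.13 against 13.3 ± 5.99 CPM, *Bmp2* 32.4 ± 0.991 against 13.9 ± 9.30, *Bmp4* 43.9 ± 6.47 against 28.6 ± 9.37 and *Grem1* 26.0 ± 12.0 against 12.2 ± 6.51. These 5 genes did not overlap between the sides and were higher with BP in the label, beside 16.7% of all 20735 genes tested, and the margin of *Bmp4* (36.9 against 35.2 CPM) and of *Grem1* (17.9 against 16.8) was narrow. The other 5 genes overlapped, among them *Bmp7* at 97.6 ± 4.32 against 91.4 ± 38.7 CPM.

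No gene of 20735 was called between the labels by edgeR (0%, with 1987 genes at an unadjusted p under 0.05), and none of the members. *Id3* had a log2 fold change of 2.23 ± 0.44 (unadjusted p = 0.00250, adjusted p = 0.462), *Nog* 0.95 ± 0.33 and *Bmp2* 1.17 ± 0.43. DESeq2 called 552 genes, among them *Id3* at 2.22 (adjusted p = 2.77e-04, range over the alternatives 2.77e-04 to 0.996). Without MP, which leaves PD+MP alone on its side and assumes that it varies like the others, edgeR called 587 genes, among them *Bmp2* at 2.03 (0.0368, range over the alternatives 0.0368 to 0.996). The labels of both BP tumours share a leading number of unstated meaning, so they may not be independent.

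**Figure D3:**
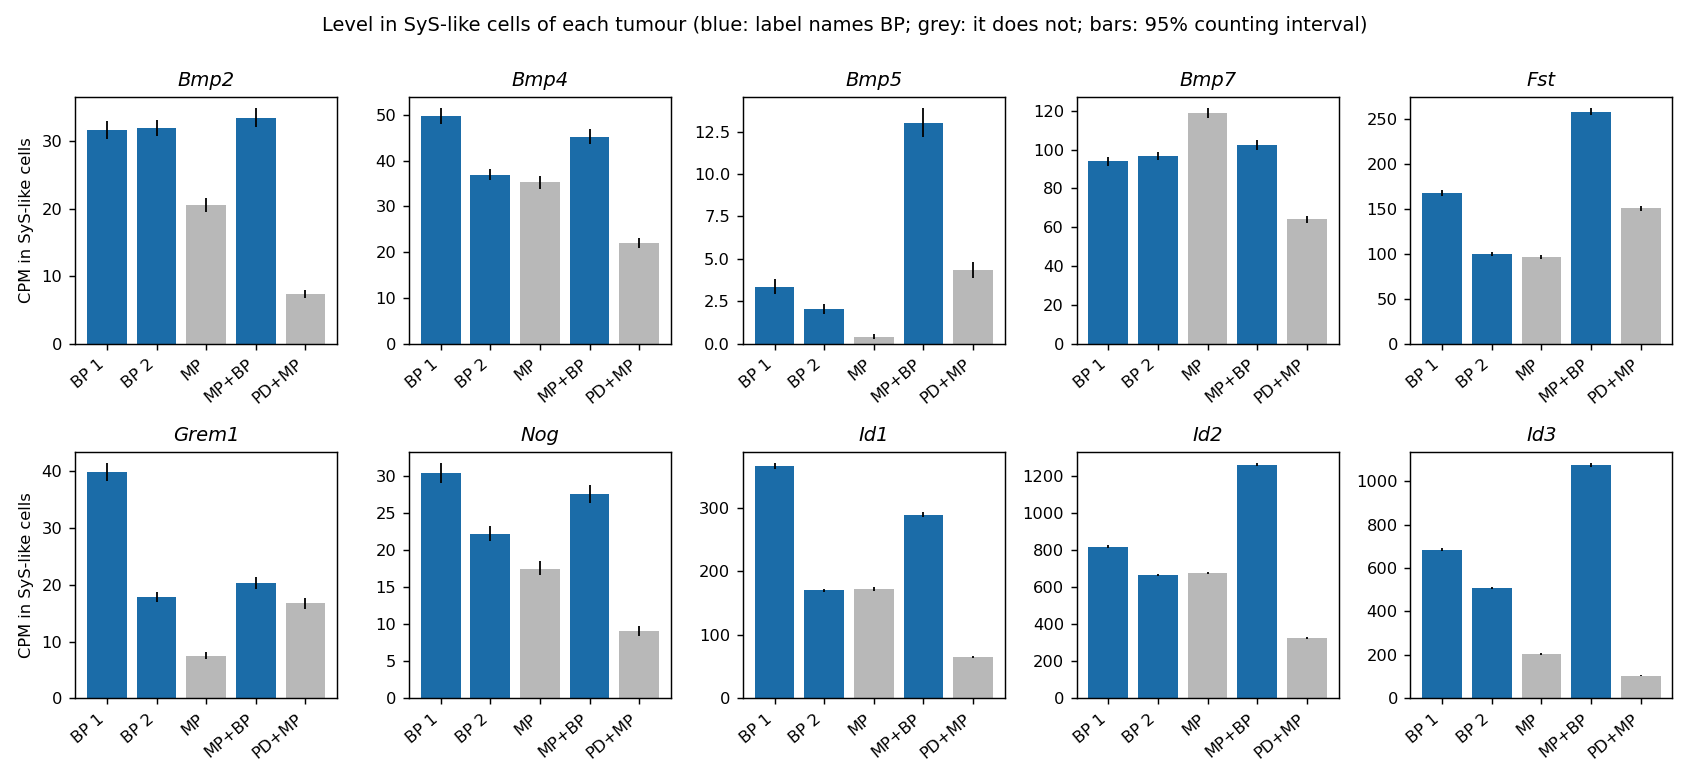
CPM of each gene in SyS-like cells of the 5 tumours, with 95% exact Poisson counting intervals that do not cover variation between animals. Blue bars are tumours with BP in the label and grey bars the others, and PD+MP was lowest for 7 of the 10 genes.

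The clusters of SyS-like cells showed a pattern that class totals did not. None of the members had been used for clustering, but genes that vary with them had, so the following is a description without a test. Of 13 SyS-like clusters, 1 had at least 20 cells in every tumour, with 2147 cells in all, namely 195, 730, 129, 894 and 199 by tumour. Its leading genes were *Sst*, *Cartpt*, *Egfl6*, *Cfd* and *Tmem59l*. It made up 7.93% of SyS-like cells, and 78.4% of their *Bmp5* UMIs lay in it.

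In this shared cluster *Bmp5* reached 91.8, 28.3, 15.6, 93.7 and 196 CPM. Over all tumours, 23.0% of the cluster's cells held a *Bmp5* UMI, 12.7% a *Grem1*, 48.6% a *Bmp4* and 71.8% an *Fst* UMI. The other SyS-like cells of the same tumours held 0.174, 0.176, 0.231, 4.46 and 0.437 CPM. Every tumour had its higher *Bmp5* level in the same small cluster, which held 43.3% (MP) to 94.98% (BP replicate 1) of the tumour's SyS-like *Bmp5* UMIs. In MP the cluster held 13 *Bmp5* UMIs and the other SyS-like cells 17, so the MP level and share were imprecise. An unnamed cluster of 343 cells, with 15 to 214 in each tumour, 6 SyS markers and a median of 1941 UMIs, held *Bmp5* at 86.7 CPM and *Bmp4*, *Fst* and *Grem1* at 82.8, 246 and 85.4 CPM. With the shared cluster left out, the fitted log2 fold changes of *Bmp5* were -4.68 against stromal, -0.01 against endothelial-like and 0.61 against macrophage-like cells. These are no test, since the cluster was chosen after its values were seen and held most of the UMIs.

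*Bmp4* in the shared cluster was 103, 119, 131, 109.6 and 98.5 CPM. The other SyS-like cells, pooled within each tumour, held 20.4 to 47.7 CPM, so these ranges did not overlap. A cluster among those cells, mostly from BP replicate 1, nevertheless reached 104 CPM. *Fst* ranged from 239 to 718 CPM in the shared cluster and from 73.0 to 238 CPM in the pooled others, and was higher inside in all 5 tumours. *Grem1* was higher inside in all 5 tumours as well, at 319 and 130.1 CPM against 29.9 and 10.1 in BP replicates 1 and 2, but at 21.6 to 28.2 against 7.39 to 19.5 CPM in the other 3.

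The target genes were also higher in the shared cluster, and whether this goes with the ligands was not tested. *Id3* ranged from 968 to 1769 CPM in the shared cluster and from 82.6 to 1012 CPM in the other SyS-like cells, and in PD+MP it was 1146 against 82.6. *Id1* ranged from 228 to 554 against 60.6 to 362 CPM and *Id2* from 883 to 1475 against 314 to 1235 CPM, each higher inside in 5 of 5 tumours. *Bmp7* (64.3 to 116 against 64.1 to 119 CPM) showed no difference larger than the spread between tumours, *Nog* was higher inside in 1 of 5 tumours (15.6 to 25.6 against 8.89 to 30.5 CPM), and *Bmp2* was higher in 3.

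**Figure D4:**
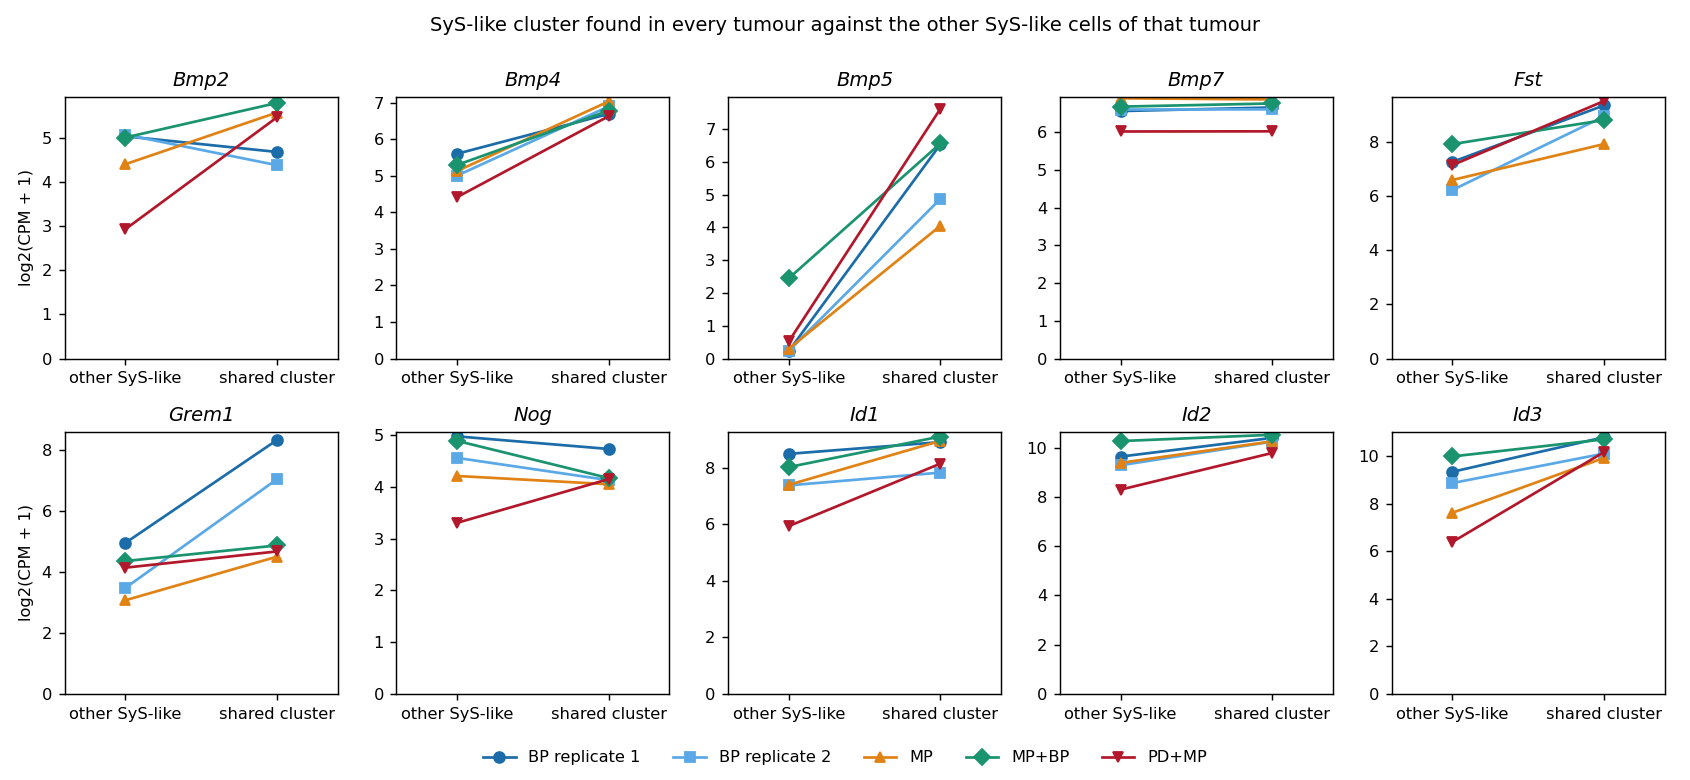
Level as log2(CPM + 1) in the SyS-like cluster found in every tumour (right) and in the other SyS-like cells of that tumour (left), 1 line per tumour. Lines rise in all 5 tumours for *Bmp4*, *Bmp5*, *Fst*, *Grem1*, *Id1*, *Id2* and *Id3*.

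The shared cluster was called SyS-like from 8 of 14 SyS markers, against 2 fibroblast markers. *Tle1* (215 CPM against 232 in the other SyS-like cells), *Hmga2* (552 against 595), *Reln* (264 against 311) and *Nxph1* (229 against 188) were at levels near those of the other SyS-like cells, while *Zic1* (18.9 against 71.7), *Nnat* (56.1 against 169), *Epcam* (46.4 against 134), *Chl1* (90.9 against 206) and *Cd24a* (275 against 487) were lower. *Penk*, also a SyS marker, was higher, at 145 against 3.71 CPM. The 10 fibroblast markers summed to 1800 to 6044 CPM in it, against 120 to 703 in the other SyS-like cells. Most of this came from *Col1a1* (2586 CPM, against 12851 in fibroblast-like cells) and *Col3a1* (1503 against 22329). *Col1a2* (131 against 9792), *Dcn* (82.1 against 4548) and *Lum* (17.8 against 1409) were also far below the fibroblast-like level. The fibroblast genes *Dpt*, *Pi16* and *Clec3b* stood at 1.505, 0.810 and 0.810 CPM, against 724, 358 and 1325 in fibroblast-like cells, but *Fbln1* (376 against 366) and *Pdgfra* (108 against 163) were near the fibroblast-like level. The median UMI count was 5183 to 8568 in it and 8658 to 12622 in the other SyS-like cells. Whether its cells carry the fusion, and how much the collagen-rich profile goes with the BMP genes, was not tested.

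Other clusters also held members at high levels, with cells of all tumours pooled. *Grem1* reached 117 CPM in a cluster of 628 cells, of which 97.0% came from BP replicate 1, below the 319 CPM of the shared cluster in that tumour. The same 628 cells held *Bmp4* at 104 CPM, against 103 in the shared cluster of BP replicate 1. *Id2* (1714 CPM), *Id3* (2072) and *Nog* (44.4) were highest in a cluster of 1591 cells, of which 99.6% came from MP+BP. The shared cluster in that tumour held *Id2* and *Id3* at 1475 and 1665 CPM, both lower. Its *Fst* level was 442 CPM, against 425 in the cluster of 1591 cells. *Bmp7* was the most even member, with 59.2 to 119 CPM over the 13 clusters. A cluster of PD+MP held the lowest level of 7 members, and its median of 2731 UMIs per cell was the lowest of the 13 clusters, the others having 6152 to 14783; the part of depth was not tested.

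The last comparison asked whether the genes went with epithelial gene expression inside SyS-like cells. Cells with UMIs of at least 2 of 14 epithelial genes (such as *Cdh1*, *Esrp1* and *Cldn3*) were called positive (4357 cells) and those with none negative (14208). Positive cells made up 26.0, 15.9, 18.5, 17.3 and 7.97% of SyS-like cells by tumour. The share in MP was above those of BP replicate 2 and MP+BP, so the cut did not follow the histology label. Positive cells had 2.10 to 3.03 times the median UMI count of negative cells, and the part of depth in the differences below was examined only by thinning.

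No member was higher in positive cells and 6 were lower, beside 10.8% and 12.4% of 17691 genes. With library totals as the only scaling, 1 member (*Bmp7*) was higher and 3 were lower, and the split of all genes was 4293 higher to 1242 lower. *Id3* was at 576, 408, 182, 790.2 and 87.8 CPM in positive cells. The negative cells of the same tumours held 834, 607, 226, 1400 and 123 CPM, higher in 5 of 5, and the log2 fold change was -0.64 ± 0.07 (edgeR adjusted p = 5.89e-04). The other calls were *Id1* (-0.39 ± 0.10), *Bmp4* (-0.38 ± 0.07), *Fst* (-0.35 ± 0.10), *Nog* (-0.23 ± 0.06) and *Id2* (-0.20 ± 0.06). *Bmp4* and *Nog* were lower in positive cells in 5 of 5 tumours. *Id1*, *Fst* and *Id2* were lower in 4 of 5, and higher in PD+MP. Without BP replicate 1, BP replicate 2 or MP, 2 calls were left each time, *Id3* and *Bmp4*. *Bmp7* stood at 101 against 90.1 CPM on average and was not called (0.07 ± 0.05).

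With every cell thinned to 3000 UMIs before the sets were drawn, positive cells were 3.29, 1.98, 1.51, 4.13 and 1.35% of those deep enough. The share in MP was then below that of every tumour with BP in the label. After this thinning 2 of the 6 calls were made (*Id1* and *Id3*), and *Id3* was lower in positive cells in 4 of 5 tumours. *Bmp4* then averaged 40.9 CPM in both sets. Without the tumour as a block none of the 6 was called. The shared cluster described above held fewer positive cells than the other SyS-like cells of each tumour, 6.03 to 21.5% against 8.03 to 26.2%, but it was also shallower in every tumour, and the shares were not compared at equal depth.

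**Figure D5:**
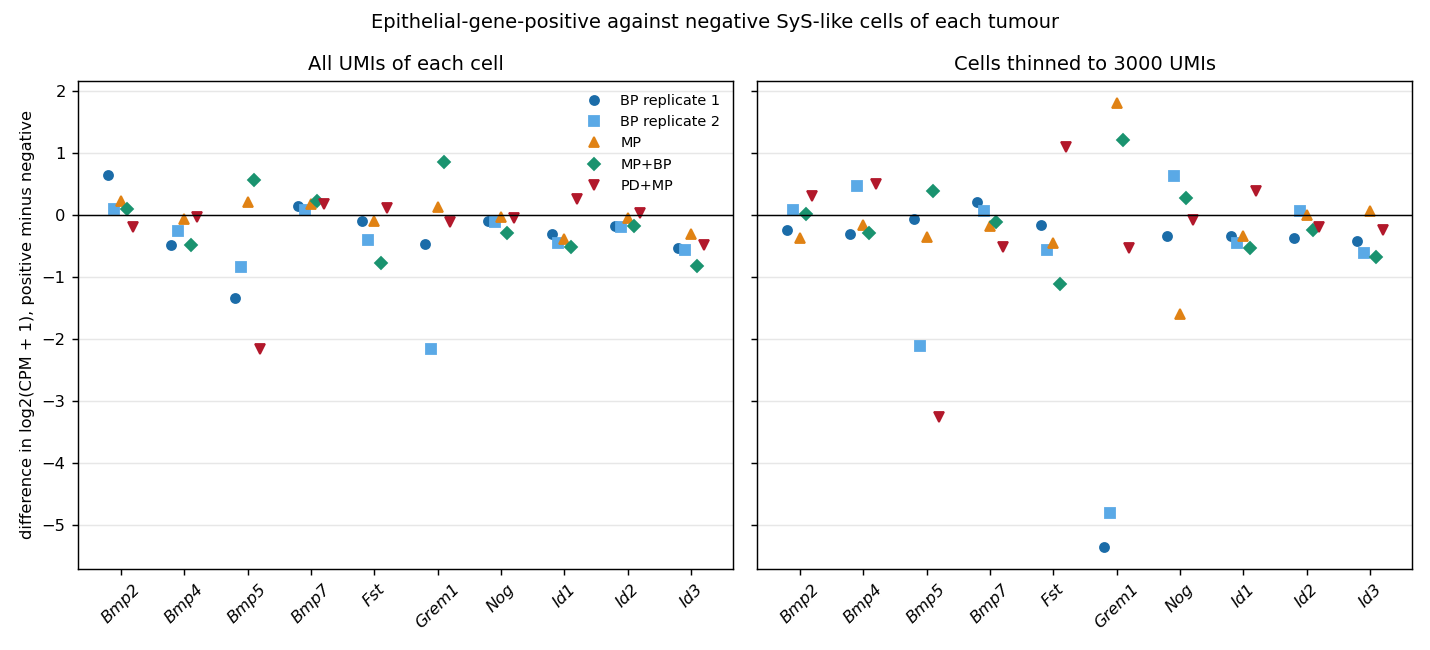
Difference in log2(CPM + 1) between epithelial-gene-positive and negative SyS-like cells of each tumour, with all UMIs (left) and with cells thinned to 3000 UMIs (right). *Id3* was lower in positive cells of all 5 tumours on the left and of 4 on the right, where the scarce genes *Bmp5* and *Grem1* scattered widely.

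The genes most alike to each member over the 20 sums (5 tumours by SyS-like, stromal, endothelial-like and macrophage-like cells) were found by Pearson's r of log2(CPM + 1) among 11852 genes. Sums of a class, and sums of a tumour, share their cells' type or their library, so r is given as a description. For the ligands these were *Tbx1* (0.92) and *Celf4* (0.89) for *Bmp2*, *Sox11* (0.96) and *Cavin2* (0.96) for *Bmp4*, *Ppfia2* (0.89) and *Angptl2* (0.88) for *Bmp5*, and *Tnrc18* and *5730522E02Rik* (both 0.98) for *Bmp7*. For the antagonists they were *Efs* (0.96) and *Gria3* (0.95) for *Fst*, *Mnx1* and *Rmst* (both 0.95) for *Grem1*, and *2700069I18Rik* (0.97) and *Fndc4* (0.96) for *Nog*. For the targets they were *Gnai1* and *Gm15614* (both 0.96) for *Id1*, *Sorl1* (0.96) and *Dnase2a* (0.95) for *Id2*, and *Pawr* (0.98) and *Cabp1* (0.97) for *Id3*.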

How the data were processed

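Single-cell RNA-seq libraries of 5 tumours were made with droplet-based 3′ chemistry. Per the file headers, the authors counted UMIs with Cell Ranger 7.2.0 (build mm10 per the labels), and the deposited values are raw counts per gene and cell in filtered matrices, with nothing normalized or pooled. Whether intronic reads were counted was not given in the sources used here. The members and gene lists were chosen with earlier results of these data known.

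Cells with at least 750 genes and at most 25% mitochondrial UMIs were kept, as in the study's methods. The highest doublet scores of each tumour (Scrublet in scanpy 1.11.5) were removed up to the expected share, 2957 cells in all. Leiden clusters (leidenalg 0.10.2, resolution 1, 30 components of 3000 variable genes, listed genes excluded, no batch correction) were named from at least 3 markers, so names are rebuilt here and may differ from the study's. The stromal class joins pericyte-like and fibroblast-like clusters.

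Each class of each tumour gave 1 sum of counts, and all genes passing the filter were tested with edgeR 4.0.16 (filterByExpr, TMM, quasi-likelihood, tumour as a block where classes of a tumour were compared). In a check on simulated data the share of false calls lay above the threshold in every comparison, and few changes between labels were recovered, so single calls near the threshold are uncertain. Of simulated 2-fold changes, 19% were recovered against stromal, 36% against endothelial-like and 50% against macrophage-like cells. A difference that was not called is therefore no sign of equal levels. DESeq2 1.42.0 was an alternative. Fold changes are on edgeR's scale, with SE as the fold change divided by the root of F. Named genes were the members and, from each list, up to 3 with the largest called difference from stromal cells or 2 from the other classes, plus 2 with the most alike pattern for each member. *Neo1*, *Rgmb*, *Bmpr2* and *Bambi*, and the genes describing clusters, were named after their values had been seen. Total UMI counts per library were 89996321 to 118649103. Replicates are separate tumours by the labels. The exact Poisson intervals and floors cover counting error only.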

Additional observations from a re-analysis of the deposited data

Results flagged for a closer look

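Of 40 sets of 5 tumour values (10 genes in 4 classes), 3 held a value separated from the others by a gap above the critical share of the range for 5 values, and chance alone gives about 1 in 20. The tumours carry different labels, so such a value need not be an error. *Fst* in stromal cells of PD+MP was 134 CPM, against 3.13 to 23.2 in the other tumours. *Bmp2* in macrophage-like cells of BP replicate 2 was 16.9 CPM, against 2.68 to 6.55 elsewhere, in the tumour whose endothelial-like cells also had the highest *Bmp2* (122 CPM). *Bmp5* in endothelial-like cells of MP+BP was 1.76 CPM, against 0 to 0.416 elsewhere, and rested on 6 UMIs.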

How the results depend on the processing

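Of 707 log2 fold changes of members under the alternatives, 636 kept their direction and side of the threshold, 47 lost a call, 15 gained one and 9 turned. Requiring at least 10 counts in every sum leaves few members to test. It gave 1 higher and 1 lower of 3 tested against stromal cells (2927 genes called, 5551 otherwise), 1 and 1 of 5 against endothelial-like cells (4356 genes, 9748 otherwise) and 4 higher of 5 against macrophage-like cells (6413 genes, 11570 otherwise). Against stromal cells, thinned SyS-like sums left 7 members to test and gave 4 higher (6 otherwise), 1 lower and 3586 genes. Thinned sums gave 5 higher of 9 tested against endothelial-like and 8 higher of 9 against macrophage-like cells. No tumour block gave 5 higher and 0 lower members against stromal cells, with *Bmp5* (edgeR adjusted p = 0.132), *Fst* (0.115) and *Id3* (0.0552) not called. *Bmp5* was also lost there without BP replicate 1, and leaving out a tumour gave 1 to 2 lower. Against endothelial-like cells, library totals only, no filter on low counts and no tumour block each gave 1 lower member (2 otherwise). Leaving out a tumour gave 0 (without BP replicate 2) to 2, with 1 without PD+MP. DESeq2, doublets kept, thinned SyS-like sums and leaving out the shared SyS-like cluster each gave 3 lower members against endothelial-like cells. Without the shared SyS-like cluster, an alternative chosen after seeing the data, *Bmp5* turned to -0.013 there, which the choice of the cluster largely fixes; the other added alternative left out an endothelial-like cluster with pericyte markers. Library totals only gave 0 lower members against macrophage-like cells, and shifted the median of all genes to 0.43, 0.40 and 0.83 against stromal, endothelial-like and macrophage-like cells, with splits of 5022 higher to 2005 lower, 7326 to 3479 and 10270 to 3119 genes (3120 to 2431, 5557 to 4191 and 6677 to 4893 otherwise).

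Between labels, DESeq2 called 1 member and 552 genes, and leaving out a tumour gave 0 to 1 member and 0 to 587 genes, the highest without MP. *Bmp7* turned to -4.9e-05 without a filter, and ranged from -0.33 to 0.50 with a tumour left out. Between epithelial-gene-positive and negative cells, library totals only gave 1 higher and 3 lower members and a split of 4293 to 1242 genes (1917 to 2195 otherwise), no tumour block 0 lower members and 2 genes, thinning 2 lower members and 259 genes, and DESeq2 2697 genes (4112 otherwise). Leaving out a tumour gave 2 to 6 lower members and 1565 to 5609 genes, with 1565 without BP replicate 1, 2056 without BP replicate 2, 1761 without MP and 2705 without MP+BP. After thinning *Bmp2* (-0.11), *Bmp7* (-0.12) and *Nog* (0.040) turned, and with a tumour left out *Bmp2* ranged from -0.0068 to 0.17 and *Grem1* from -0.81 to 0.012. The causes were not tested. Between the label groups no paired analysis was possible, because each label belongs to different tumours. The comparisons of classes and of epithelial sets were paired by tumour. Sums of few UMIs (*Grem1*, *Nog* and *Bmp5* outside SyS-like cells) limit precision.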
